A study of Drosophila melanogaster with 26 samples.

Results

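The cytosolic ribosomal protein genes of Drosophila melanogaster were followed in total RNA of whole ovaries after germline RNAi against members of the nonspecific lethal (NSL) complex, a chromatin complex. They were taken as the genes whose symbol begins with RpL or RpS, which gave 92 of 15340 genes listed, 54 with the prefix RpL and 38 with RpS. A mean of at least 10 normalized reads over the 6 libraries of a comparison was reached by 89 of the 92 members in the NSL1 table, 86 in the NSL2 table and 88 in the NSL3 table. RpL10Aa, RpS28a and RpS28-like stayed under this minimum in all 3 tables, RpS10a in the NSL2 and NSL3 tables, and RpL22-like and RpL37b in the NSL2 table.

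In all groups nanos-GAL4, which is active in the female germline and not in the somatic cells around it, drove a hairpin transgene, and the F1 females were fed yeast for 3 to 5 days before dissection. The hairpins targeted white (Bloomington stock 35573, the control), NSL1 (58328), NSL2 (58162) and NSL3 (Vienna stock 108002 in the sample records, while the study's methods name another Vienna line). Each of the 4 groups has 3 libraries, which the study describes as ovaries from separate crosses, pooled within a library. There is 1 hairpin line per target, so an effect of the target and an effect of its line cannot be told apart. The study describes NSL1 and NSL3 RNAi ovaries as atrophied and NSL2 RNAi ovaries as normal in shape. All 3 knockdowns were compared here with the same white RNAi libraries, so the comparisons share their controls. The study names ovaries of virgin white RNAi females as the reference for NSL1 and NSL3 RNAi, whereas the white columns of all 3 tables match the sample record without that label by name. Virgin controls were not analysed here, and each NSL1 or NSL3 fold change is relative to those other white RNAi ovaries.

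A ribosome joins a small 40S and a large 60S subunit, each built from ribosomal RNA and a fixed set of proteins, most of which are encoded by a single gene in flies. Loss of a copy of many of these genes gives the Minute phenotype of slow growth and thin bristles. In the ovary, nurse cells make most of the ribosomes that the oocyte passes on to the embryo. Some ribosomal proteins have a further gene with a narrower pattern: RpS19b is known from germ cells, and RpL22-like is known from the testis.

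The libraries held 20820820 to 23021900 reads for white, 14507550 to 16699905 for NSL1, 14868717 to 20911687 for NSL2 and 12482452 to 15127028 for NSL3 RNAi. The targeted transcripts were lower in their own knockdown, with log2 fold changes of -0.88 for wah (NSL1), -0.54 for dgt1 (NSL2) and -0.92 for Rcd1 (NSL3). The makeup of the tissue differed between groups. The summed level of 27 nurse cell and oocyte markers, in normalized reads, was 423088 to 442150 in white and 114375 to 124398 in NSL1 RNAi. White and knockdown sums were 460271 to 473195 against 360026 to 401096 for NSL2 and 383413 to 403999 against 103443 to 227543 for NSL3 RNAi. Much of the NSL2 difference lay in the single gene dhd, with means of 76099 and 33394. For 20 follicle cell markers the sums were 20756 to 82710 against 149601 to 216110 (NSL1), 22213 to 89979 against 448111 to 808608 (NSL2) and 18965 to 74954 against 123899 to 207445 (NSL3). This list did not move as a whole. In NSL2 RNAi the eggshell gene Cp36 went from a mean of 6354 to 86796, and Fas3 from 620 to 858. In NSL1 RNAi Cp36 went from a mean of 5892 to 6342, and Fas3 from 578 to 11894. The sums of 20 muscle markers were, in the same order of knockdowns, 3179 to 4268 against 278268 to 355557, 3402 to 4643 against 4450 to 6918 and 2905 to 3868 against 296635 to 604422. For 10 hemocyte markers they were 10508 to 12704 against 167536 to 186464, 11245 to 13821 against 11006 to 13468 and 9601 to 11513 against 126420 to 240177. Fat body marker sums were higher too in NSL1 and NSL3 RNAi, and neuronal marker sums in all 3 knockdowns, at 177 to 261 against 503 to 720.1 for NSL2 RNAi. Most of this NSL2 rise came from futsch, with means of 28.9 and 342, and some from cac, with 90.4 and 169. The neuronal marker elav had means of 54.3 and 72.1 there and Appl 29.6 and 30.9, so this sum does not show a general rise of the list. In white RNAi the markers cup (oocyte), fln (muscle), He (hemocyte) and Lsp1alpha (fat body) were at 0 reads, and cup, a gene known to be active in the ovary, was listed at 0 in all 12 libraries, which is not read as absent expression. White replicate 3 has the highest follicle cell sum of the controls, NSL2 replicate 2 that of its group, and NSL3 replicate 2 the highest nurse cell and the lowest muscle sum of its group. The part of this makeup in the results was not tested.

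The ribosomal protein genes moved little in all 3 knockdowns, although much of the transcriptome changed in NSL1 and NSL3 RNAi. In NSL1 RNAi, 78 of 89 tested members (87.6%) had a log2 fold change between -0.5 and 0.5, against 25.2% of the 9083 genes tested. In NSL3 RNAi there were 80 of 88 (90.9%) against 29.0% of 8898 genes, and in NSL2 RNAi 80 of 86 (93.0%) against 80.4% of 8045 genes. The replicates were close: over the 84 members with a mean of at least 1000, the median coefficient of variation was 3.53% in white and 4.08% after NSL1, 6.23% after NSL2 and 4.49% after NSL3 RNAi. Other genes at this level had 5.84%, 6.92% and 15.6% in the 3 knockdowns. In whole ovaries, fewer cells of a type and less RNA per cell cannot be told apart.

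The small shifts differed in direction between the knockdowns. By limma with a Benjamini-Hochberg adjusted p under 0.05, 58 of 89 members were higher in NSL1 RNAi and 4 lower, where 41.1% of all genes were higher and 48.0% lower. For NSL2 RNAi 17 of 86 were higher and 1 lower, where 16.1% of genes were higher and 18.6% lower, so the share of higher members lies near the background. For NSL3 RNAi 7 of 88 were higher and 24 lower (27.3%), where 37.0% of genes were higher and 43.2% lower, so both shares of members lie below the background. The median log2 fold change of the members was 0.16, 0.085 and -0.10 for NSL1, NSL2 and NSL3 RNAi, beside -0.13, -0.041 and -0.12 for all genes. The NSL3 median of the members thus shows no fall beyond that of all genes on this scale.

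These counts depend on the scale. With size factors from a median of ratios over genes, the median of all genes moved to 0.025 in NSL1 and -0.016 in NSL3 RNAi, and that of the members to 0.31 and 0.00459. The counts were then 77 higher and 3 lower in NSL1 RNAi, and 9 higher and 14 lower in NSL3 RNAi. Of all genes, 4083 of 9125 were then higher and 3969 lower in NSL1 RNAi, and 3491 of 8917 higher and 3532 lower in NSL3 RNAi. With TMM factors over genes the medians of all genes were -0.13 and -0.17, those of the members 0.16 and -0.14, and 53 members were higher in NSL1 and 31 lower in NSL3 RNAi. By TMM 3721 of 9080 genes were higher in NSL1 and 3984 of 8884 lower in NSL3 RNAi. With the total of gene reads as the scale, 6 members were higher and 38 lower in NSL3 RNAi. Of 8871 genes 3140 were higher and 4066 lower by this scale, so the share of lower members lies near the background. The NSL2 count was 7 higher without white replicate 2, 8 without white replicate 1 and 10 without NSL2 replicate 2. Calls over all genes fell too, from 1299 higher of 8045 to 753 of 8078, 809 of 8107 and 917 of 7966. In NSL3 RNAi 15 members were lower without NSL3 replicate 3 and 15 without white replicate 2, and 11 were higher without NSL3 replicate 2. Over all genes 3435 of 8761 and 3249 of 8997 were lower and 3417 of 8830 higher in these fits. The main NSL3 fit had 3841 lower and 3292 higher of 8898 genes.

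Changes over 2-fold were rare among the members. They were called for 6 of 89 members in NSL1 RNAi, all higher, where 31.8% of genes were higher and 20.4% lower by this rule. Among them are RpLP0 and the paralogues RpS10a, RpS19b, RpL22-like and RpL37b. These paralogues had 11, 33, 1 and 2 reads in white RNAi in all. Wherever they were tested, they reached the minimum mean only through the knockdown libraries, so only a rise could be called for them. The NSL2 table has 3 of 86, RpS2, RpLP0 and RpS19b, all higher, where 8.46% of genes were higher and 1.17% lower. The NSL3 table has 4 higher and 1 lower of 88, RpS19b, RpL22-like and RpL37b among the higher, where 29.6% of genes were higher and 14.6% lower. Not all were rare: of the members with group means averaging at least 1000, 2 were higher by this rule in NSL1 RNAi, 1 was higher in NSL3 RNAi and 1 lower. Without NSL3 replicate 1 the count of higher members in NSL3 RNAi was 2.

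**Figure D1:**
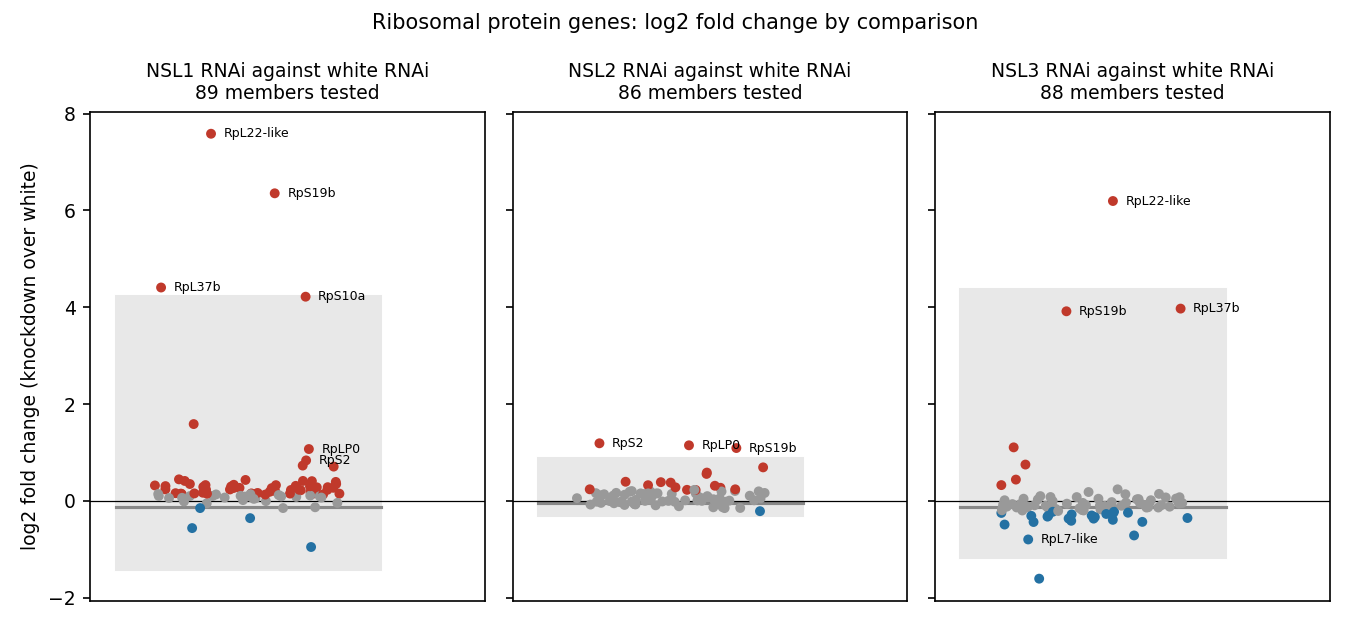
Log2 fold change of each tested member (points, coloured by call at an adjusted p under 0.05) in NSL1, NSL2 and NSL3 RNAi against white RNAi, with the 10th to 90th percentile of all tested genes as a grey box and their median as a grey line (red, higher; blue, lower; grey, not called). Most of the 89, 86 and 88 points lie between -0.5 and 0.5, and a few paralogues of low level stand far above the rest in NSL1 and NSL3 RNAi.

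Read as a pool, the 92 members took up 9.19% ± 0.350 (SD, n = 3) of all gene reads in white RNAi, with 8.84%, 9.18% and 9.54% in the single libraries. In NSL1 RNAi the shares were 10.6%, 11.0% and 11.1%, all above the controls (mean 10.9% ± 0.277). In NSL3 RNAi they were 7.99%, 8.10% and 7.94%, all below the controls (mean 8.01% ± 0.0817). NSL2 RNAi, with 9.50%, 10.6% and 9.95%, overlapped them. The exact permutation test (two-sided, n = 3 and 3) gave p = 0.1 for NSL1 and for NSL3, the smallest value that 3 against 3 libraries can give, and p = 0.2 for NSL2. Adjusted over the 3 comparisons these are 0.15, 0.15 and 0.2. The difference from white was 1.70 percentage points after NSL1, 0.843 after NSL2 and -1.18 after NSL3 RNAi. Members of both prefixes took part. The mean share of all genes with the prefix RpS was 3.65% in white, 4.27% in NSL1 and 3.15% in NSL3 RNAi. That of all genes with the prefix RpL, assembly factor relatives included, was 5.54%, 6.61% and 4.86%. A share of this kind does not use the size factors, and it moves with the reads of all other genes.

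**Figure D2:**
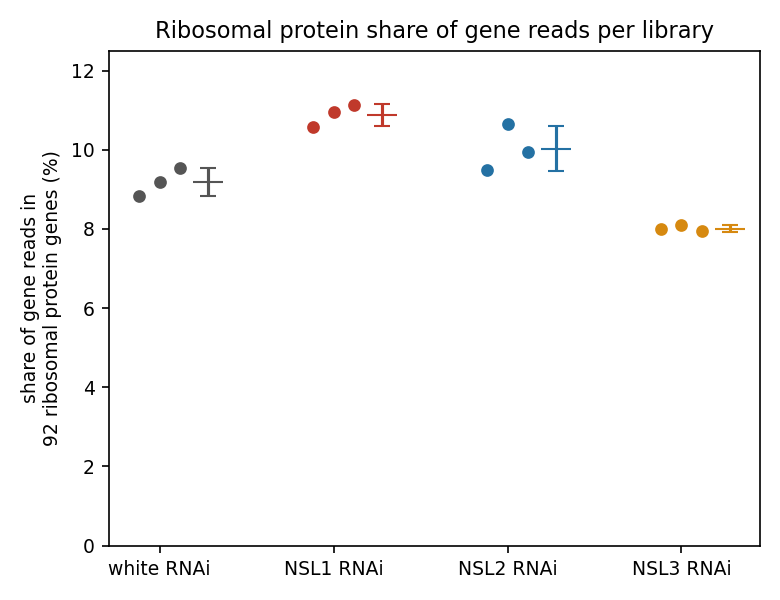
Share of gene reads in the 92 ribosomal protein genes, in percent, for each library (points) of the 4 groups, with the mean and SD of 3 libraries. NSL1 RNAi libraries lie at 10.6 to 11.1% and NSL3 RNAi libraries at 7.94 to 8.10%, on either side of white RNAi at 8.84 to 9.54%.

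NSL1 and NSL3 RNAi were also compared with each other, in a limma fit of all 12 libraries on a common scale, a comparison added after these shares had been seen. Of 89 members, 75 were higher in NSL1 than in NSL3 RNAi and 0 lower at an adjusted p under 0.05, where 15.4% of 9097 genes were higher and 21.6% lower. The median difference of the members was 0.38 on the log2 scale, against -0.088 for all genes. The stalk protein gene RpLP1 differed by 0.70 (SE 0.11, adjusted p = 0.000734), and RpL9, a protein gene of the large subunit, by 0.53 (SE 0.08, adjusted p = 0.000805). RpL11, whose protein carries 5S ribosomal RNA into the 60S subunit together with RpL5, differed by 0.51 (SE 0.09, adjusted p = 0.0013). Among the 14 members that did not pass were the assembly factor gene RpL24-like at -0.073 and the rare RpL22-like at 1.33 (SE 0.92, adjusted p = 0.272). Leaving out a library gave 50 (without NSL1 replicate 3) to 73 members higher, and the total of gene reads as the scale gave 80.

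A set of 39 genes for 60S proteins left out stalk, ubiquitin fusion and paralogue genes. RpL7 and RpL24 were kept in it, as their relatives are assembly factor genes. In this set 27 rose and 0 fell after NSL1 RNAi, 6 rose and 0 fell after NSL2 RNAi, and 0 rose and 11 fell after NSL3 RNAi. Of the 24 genes of this kind for 40S proteins, 15 rose and 1 fell after NSL1, 4 rose and 0 fell after NSL2, and 1 rose and 6 fell after NSL3 RNAi. Over all genes 41.1% rose after NSL1 RNAi, 16.1% rose after NSL2 RNAi and 43.2% fell after NSL3 RNAi, so the NSL2 shares of both subunits lie near the background and the NSL3 shares that fell lie below it. The median of the 60S genes was 0.16, 0.069 and -0.12 and that of the 40S genes 0.15, 0.11 and -0.13 on the log2 scale. RpL23A and RpL28, both 60S protein genes, rose in NSL1 RNAi by 0.45 and 0.43 on this scale. RpL11 read 20160, 21259 and 20940 in white and 17167, 16586 and 16859 in NSL3 RNAi, all below the controls (log2 fold change -0.30, SE 0.07, adjusted p = 0.00658). In NSL1 RNAi it rose by 0.15 on the log2 scale. RpL40 and RpS27A, which encode a ribosomal protein fused to ubiquitin, fell in NSL3 RNAi by 0.22 and 0.25 on the log2 scale.

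In white RNAi, RpL41, RpS3A and RpL5 had the most reads of all members, though reads were not divided by gene length and do not rank the mRNAs. RpL41, which encodes a very short basic peptide of the large subunit, read 51903, 55658 and 54440 in white and 37888, 41192 and 36489 in NSL3 RNAi (log2 fold change -0.49, SE 0.09, adjusted p = 0.00186). In the NSL1 table it read 56804, 61010 and 60074 in white and 54194, 53487 and 54662 in NSL1 RNAi. The groups do not overlap there either, but this difference did not pass the test (log2 fold change -0.13, SE 0.06, adjusted p = 0.0659), passed it with edgeR and with DESeq2, and had the value 0.013 with size factors from a median of ratios over genes. RpS3A, a 40S protein gene on the small chromosome 4, read 50620, 53510 and 52100 in white and 39332, 39265 and 38891 in NSL3 RNAi, all below the controls (log2 fold change -0.41, SE 0.08, adjusted p = 0.00214). For NSL1 RNAi its log2 fold change of -0.15 passed the test (adjusted p = 0.0395), a call lost when any 1 library other than white replicate 1 was left out and under all 3 other scales. RpL5 read 33811, 36017 and 35699 in white and 26756, 25684 and 25547 in NSL3 RNAi (log2 fold change -0.44, SE 0.08, adjusted p = 0.0018), and had a log2 fold change of -0.0044 in NSL1 (above 0 with size factors from a median of ratios over genes, with the total of gene values and in 3 of the fits that left out 1 library) and -0.073 in NSL2 RNAi.

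RpL32 (rp49) is the transcript that the study used as its reference for RT-qPCR. It read 14214, 15290 and 15619 in white and 16663, 17332 and 19031 in NSL1 RNAi, where every knockdown library lay above the controls (log2 fold change 0.23, SE 0.07, adjusted p = 0.00869). Its NSL2 RNAi libraries read 16710, 18623 and 17059 against 15212, 16141 and 16991 (log2 fold change 0.12, SE 0.07, adjusted p = 0.224). Its NSL3 RNAi libraries read 13313, 12218 and 12013 against 12988, 13948 and 14154 (log2 fold change -0.13, SE 0.08, adjusted p = 0.178). The last 2 sets overlap their controls. On the common scale RpL32 was higher in NSL1 than in NSL3 RNAi by 0.42 on the log2 scale.

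A few genes for ribosomal proteins rose far more than the rest. RpLP0, RpLP1 and RpLP2 encode the stalk of the large subunit, where elongation factors bind. RpLP0 read 16970, 16847 and 21186 in white and 37085, 38026 and 39858 in NSL1 RNAi (log2 fold change 1.07, SE 0.09, adjusted p = 4.59e-06). Set against 18162, 17784 and 23048, the NSL2 RNAi libraries read 37793, 49376 and 43434 (1.15, SE 0.13, adjusted p = 0.000854). Set against 15506, 15369 and 19200, the NSL3 RNAi libraries read 28580, 27832 and 27394 (0.75, SE 0.11, adjusted p = 0.000823). The groups were separate in all 3 tables, and white replicate 3 was the highest control in each.

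RpS2, a protein at the mRNA entry of the small subunit, rose in all 3 as well. It read 18020, 16642 and 20281 in white and 30135, 34935 and 32912 in NSL1 RNAi (log2 fold change 0.84, SE 0.09, adjusted p = 1.55e-05). In NSL2 RNAi the reads were 36602, 52414 and 46285 against 19286, 17568 and 22063 (1.19, SE 0.14, adjusted p = 0.00102), and in NSL3 RNAi 20288, 25077 and 22555 against 16465, 15182 and 18379 (0.44, SE 0.11, adjusted p = 0.00905). The groups were separate in each table. White replicate 3 was again the highest control and NSL2 replicate 2 the highest NSL2 library, the libraries of their groups with the highest follicle cell marker sum. The other 2 groups went the other way. Replicate 1 of NSL1 and of NSL3 RNAi had the highest follicle cell sum of its group (216110 and 207445) and the lowest RpS2 reads. The part of these sums was not tested.

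The smaller stalk proteins rose in NSL1 and NSL2 RNAi. RpLP1 read 24421, 24194 and 26106 in white and 43289, 40066 and 40567 in NSL1 RNAi (log2 fold change 0.73, SE 0.06, adjusted p = 3.55e-06), and 26136, 25540 and 28400 against 35593, 44505 and 38123 in the NSL2 table (0.56, SE 0.10, adjusted p = 0.00565). Its NSL3 libraries, at 24172, 22875 and 24896, overlapped the controls at 22314, 22071 and 23658 (0.080, SE 0.08, adjusted p = 0.37). RpLP2 had log2 fold changes of 0.35, 0.38 and 0.045, the last not past the test and at -0.032 with the total of gene reads as the scale. RpL10Ab, whose protein forms the other stalk of the large subunit, read 16827, 18194 and 20563 in white and 29132, 29907 and 31532 in NSL1 RNAi. Its log2 fold changes were 0.71, 0.58 and 0.33, all past the test, although the NSL3 call was lost without white replicate 1, white replicate 2 or NSL3 replicate 3 and with the total of gene reads as the scale. The gene sta, which encodes the 40S protein RpSA and lies outside the prefixes, had log2 fold changes of 0.85, 0.89 and 0.51, all past the test. Rack1, a scaffold protein on the 40S head, had 0.23 (adjusted p = 0.00275), 0.15 (adjusted p = 0.183) and -0.014 (adjusted p = 0.863).

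**Figure D3:**
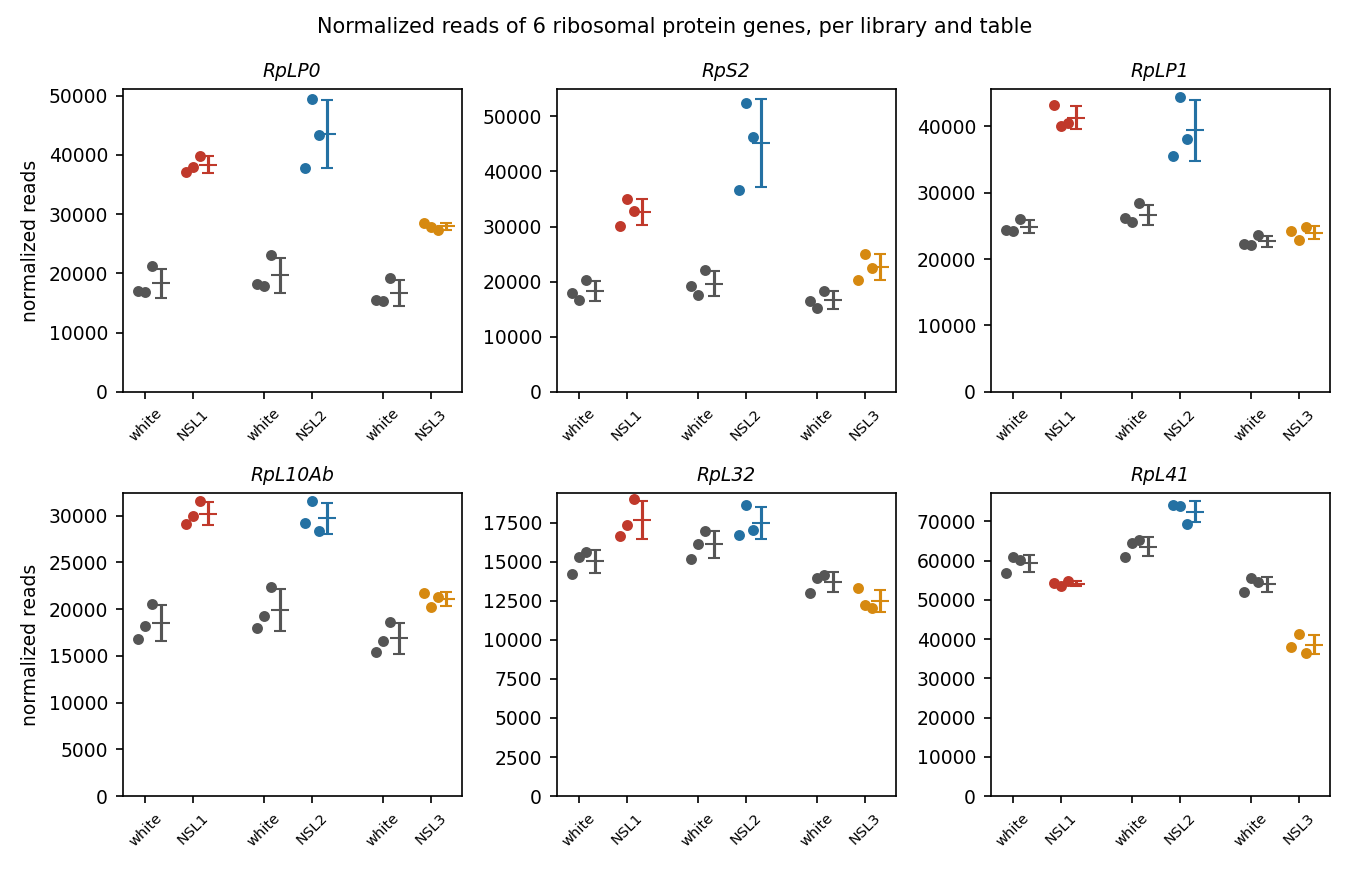
Normalized reads of RpLP0, RpS2, RpLP1, RpL10Ab, RpL32 and RpL41 in each library (points), with the mean and SD of 3 libraries, for each knockdown beside white RNAi as scaled in the same table. RpLP0 and RpS2 lie above the controls in all 3 tables, and RpL41 lies at 36489 to 41192 in NSL3 RNAi against 51903 to 55658 in white RNAi.

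RpS19b, RpL22-like, RpL37b and RpS10a, which were close to 0 in the control, had more reads in NSL1 and NSL3 RNAi. Each was tested only where its knockdown libraries lifted it over the minimum mean, so its p-values are no independent support for a rise. RpS19b had 8, 13 and 12 reads in the white libraries, 675, 613 and 843 after NSL1, 13, 27 and 23 after NSL2 and 177, 52 and 141 after NSL3 RNAi. Its log2 fold changes were 6.35 (SE 0.20, adjusted p = 2.32e-08), 1.09 (SE 0.33, adjusted p = 0.0365) and 3.92 (SE 0.53, adjusted p = 0.00069). The NSL2 call was lost with DESeq2, with no minimum mean and when any 1 library other than NSL2 replicate 1 was left out. RpS19b still made up only 3.90% ± 0.436 (SD, n = 3) of the reads of the RpS19 genes in NSL1 RNAi and 0.987% ± 0.529 in NSL3 RNAi, against 0.0504% ± 0.0109 in white. RpS19a, which encodes the main form of this 40S protein, had log2 fold changes of 0.15, -0.015 and -0.063, the last 2 not past the test and above 0 with size factors from a median of ratios over genes.

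RpL22-like had 0, 0 and 1 reads in white, 215, 99 and 377 after NSL1, 3, 6 and 6 after NSL2 and 256, 12 and 101 after NSL3 RNAi. Scaled for library size, the ratio of the summed reads to white was 959 (95% interval 171 to 37919) after NSL1, 17.9 (95% interval 2.76 to 754) after NSL2 and 609.9 (95% interval 109 to 24153) after NSL3 RNAi, where the exact intervals cover counting error only. RpL37b, the second gene for a 60S protein, had 1, 0 and 1 reads in white, 32, 11 and 52 after NSL1, 1, 1 and 0 after NSL2 and 64, 4 and 18 after NSL3 RNAi. Its ratio to white was 65.9 (95% interval 17.7 to 552) in NSL1 and 71.1 (95% interval 19.1 to 596) in NSL3 RNAi. NSL3 replicate 2, with the lowest muscle and hemocyte sums of its group, had the fewest reads of its group for RpS19b, RpL22-like and RpL37b; the part of these sums was not tested.

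RpS10a had 1, 4 and 6 reads in white, 54, 42 and 82 after NSL1, 4, 5 and 2 after NSL2 and 17, 3 and 17 after NSL3 RNAi. It passed the minimum in the NSL1 table, through its knockdown libraries only (log2 fold change 4.22, SE 0.47, adjusted p = 2.93e-05). RpS10a and tau, a gene for a microtubule-binding protein, overlap in the current annotation, so reads may be shared. RpS28a, RpL10Aa and RpS28-like had 0 reads in white and at most 4 in any knockdown group.

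Of 11 testis markers listed, 3 passed the minimum in the NSL1 and NSL3 tables, and bgcn, which also acts in the female germline, rose in both by 4.94 and 2.91 on the log2 scale. The gene bam, its partner, fell from a mean of 945 to 331 normalized reads in NSL1 RNAi and had -0.54 in NSL3 RNAi (adjusted p = 0.191). The summed level of the list was 838 to 1078 against 552 to 653 in the NSL1 table and 759 to 985 against 556 to 1106 in the NSL3 table. In white RNAi these sums were nearly all bam, with means of 945 and 861. The sums therefore do not show how the other markers moved. Mst87F, sa, Mst84Da and aly, which mark male germ cells, were at 0 reads in white, with mean levels in NSL1 RNAi of 1.13, 1.54, 0.720 and 7.01 normalized reads. In NSL3 RNAi their means were 1.38, 0.906, 1.38 and 11.9, with 24.5, 1.14 and 9.99 for aly in the single libraries. In NSL2 RNAi their means were 1.79, 18.7, 0 and 1.14, with 9.49, 18.5 and 28.2 for sa in the single libraries, its highest level of the groups. By limma bam rose there by 0.40 on the log2 scale (adjusted p = 0.0163).

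The shares of the RpL34, RpS14 and RpS15A pairs differed from white by at most 3.63 percentage points. RpL34b made up 75.2% of the reads of the RpL34 genes in white, 74.8% after NSL1, 73.1% after NSL2 and 78.9% after NSL3 RNAi. RpS14b made up 16.7%, 16.0%, 14.1% and 19.5% of the RpS14 reads, and RpS15Ab 3.54%, 3.56%, 3.75% and 4.05% of the RpS15A reads. The RpS14 genes and the RpS15A genes are near-identical copies, so their reads may have been split or lost between them. Knockdown and white libraries were separate for 8 of the 13 pairs after NSL1, 8 after NSL2 and 9 after NSL3 RNAi. RpS28b and RpL10Ab held nearly all reads of their pairs in every library, so those pairs had almost no room to separate. No such count was made for pairs of other genes, so these counts have no background and are not read as a result. The exact permutation test of such a share cannot go below p = 0.1 with 3 against 3 libraries, and the smallest adjusted p was 0.156 over the 39 tests of 13 pairs in 3 comparisons.

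RpL24-like, RpL7-like and RpLP0-like are relatives of ribosomal proteins that correspond to assembly factors of the large subunit in yeast. RpL24-like read 4671, 4646 and 4625 in white and 3092, 3062 and 3297 in NSL1 RNAi (log2 fold change -0.56, SE 0.05, adjusted p = 4.96e-06), and it fell by 0.43 on the log2 scale in NSL3 RNAi. RpL7-like fell in all 3 knockdowns, with log2 fold changes of -0.36, -0.21 and -0.80, although its NSL2 call was lost when any 1 of the white libraries was left out. In the NSL3 table it read 2338, 2369 and 2341 in white and 1154, 1442 and 1486 in the knockdown, well apart. RpLP0-like read 1435, 1487 and 1462 in white and 763, 1021 and 906 in NSL3 RNAi (log2 fold change -0.71, SE 0.13, adjusted p = 0.00192), and had -0.15 in NSL1 (adjusted p = 0.0592) and 0.11 in NSL2 RNAi (adjusted p = 0.396). Its share of the reads of RpLP0 and RpLP0-like was 8.12% ± 0.924 in white, 3.65% ± 0.304 after NSL1, 4.11% ± 0.244 after NSL2 and 3.11% ± 0.474 after NSL3 RNAi.

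Genes of ribosome biogenesis outside the prefixes fell in NSL1 and NSL3 RNAi. Of 24 listed, 20 were found and tested, and 20 fell and 0 rose in NSL3 RNAi, with a median log2 fold change of -0.96. In NSL1 RNAi 16 fell and 1 rose (median -0.60), and in NSL2 RNAi 0 fell and 1 rose (median -0.026). Over all genes 43.2% fell in NSL3, 48.0% in NSL1 and 18.6% in NSL2 RNAi, and 37.0%, 41.1% and 16.1% rose. Nop60B, the pseudouridine synthase of ribosomal RNA, had log2 fold changes of -1.20, -0.16 and -1.50, the second not past the test. Fib, the ribosomal RNA methyltransferase fibrillarin, had 0.13 in NSL1 (adjusted p = 0.284) and -0.76 in NSL3 RNAi (adjusted p = 0.0203). NHP2, of the same class of particles as Nop60B, rose by 0.37 after NSL1 and 0.46 after NSL2 RNAi and fell by 0.54 after NSL3 RNAi on the log2 scale. RpI1 and RpI135, the largest subunits of RNA polymerase I, fell by 0.69 and 0.73 in NSL3 RNAi and had 0.0025 and -0.017 in NSL1 RNAi, neither past the test. In both knockdowns the nurse cell and oocyte marker sum was low, and its part in these falls was not tested.

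Among 9 genes of translation elongation and other mRNAs with a 5′ terminal oligopyrimidine tract, the sequence class of ribosomal protein mRNAs, 3 rose and 3 fell after NSL1, 0 and 0 after NSL2 and 2 and 4 after NSL3 RNAi. Over all genes 41.1% rose and 48.0% fell after NSL1 RNAi, 16.1% rose and 18.6% fell after NSL2 RNAi, and 37.0% rose and 43.2% fell after NSL3 RNAi. With 9 genes, the NSL2 count is not read as a difference from these shares. Tctp, a growth-linked protein, fell by 0.70 in NSL1 and 0.50 in NSL3 RNAi, and the poly(A)-binding protein gene pAbp rose by 0.59 and 0.64 on the log2 scale. The elongation factor gene eEF1alpha1 had 0.16, -0.14 and 0.021, with no call. eEF1alpha2, the second gene for this factor, rose from a mean of 9.61 to 451 normalized reads after NSL1 RNAi, and from 8.74 to 1100 after NSL3 RNAi, the groups with high muscle sums.

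Of 9 transcription factors linked to ribosomal protein genes or growth, 1 rose and 6 fell after NSL1, 0 rose and 3 fell after NSL2 and 1 rose and 4 fell after NSL3 RNAi. Over all genes 41.1%, 16.1% and 37.0% were higher and 48.0%, 18.6% and 43.2% lower, so the NSL3 share that fell lies near the background. M1BP, which binds promoters of ribosomal protein genes, had log2 fold changes of -0.73, -0.14 (adjusted p = 0.0982) and -0.65. Myc, a regulator of growth, had -0.21 (adjusted p = 0.0727), -0.042 (adjusted p = 0.743) and 0.15 (adjusted p = 0.207). Xrp1, a transcription factor induced in Minute cells, rose from a mean of 501 to 4180 normalized reads in NSL1 RNAi (log2 fold change 3.07, SE 0.14, adjusted p = 1.21e-07) and from 456 to 4060 in NSL3 RNAi (3.14, SE 0.23, adjusted p = 3.49e-05), and had 0.20 in NSL2 RNAi (adjusted p = 0.41). Ilp8, an insulin-like peptide of disturbed growing tissue, fell by 3.60 in NSL1 and 2.05 in NSL3 RNAi.

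**Figure D4:**
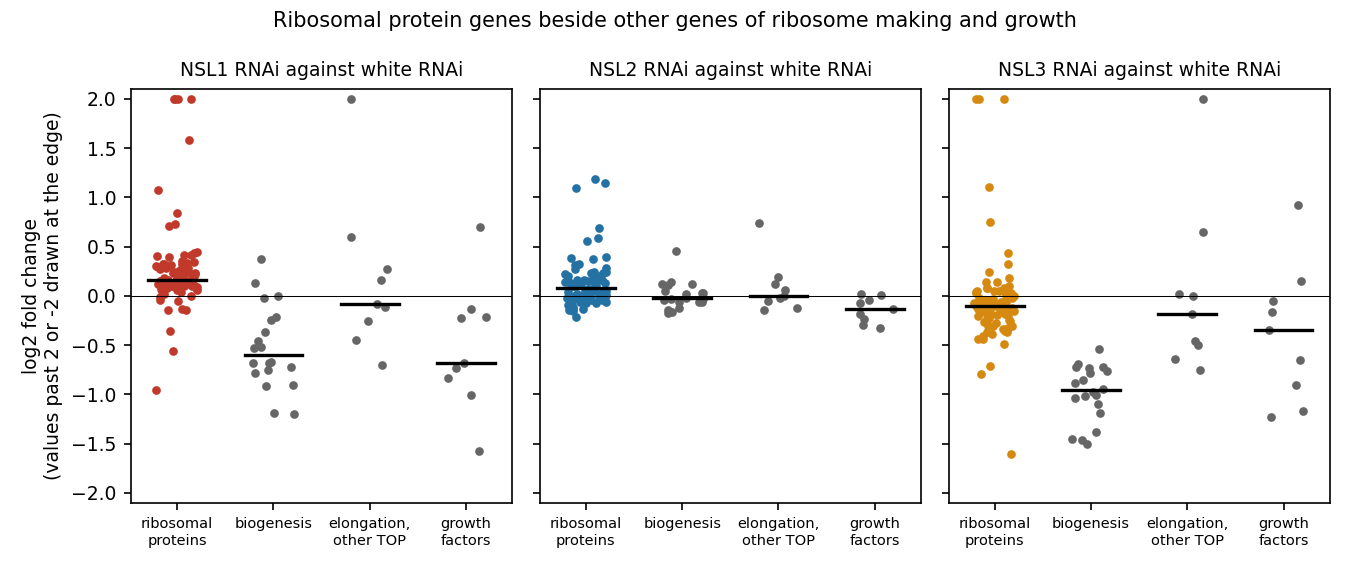
Log2 fold change of each tested gene (points) in NSL1, NSL2 and NSL3 RNAi against white RNAi, for the ribosomal protein genes and lists of other genes of the same process, with the median of each as a black line and values past 2 or -2 drawn at the edge. The 20 biogenesis genes have medians of -0.60, -0.026 and -0.96, while those of the ribosomal protein genes are 0.16, 0.085 and -0.10.

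Of the 92 members, 28 hold small nucleolar or nuclear RNA genes within their bounds and 34 overlap another gene in the current annotation, while 43, RpLP0, RpS2 and RpLP1 among them, do neither. RpLP0-like and RpL41 are among those that overlap another gene. The library kit keeps strand, but the sources used here do not state whether counting used it, so reads of overlapping genes may be shared.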

How the data were processed

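Total RNA of ovaries was depleted of ribosomal RNA and sequenced from libraries of a stranded kit. Per the labels and the study's methods, reads were aligned to dm3 with STAR in the piPipes pipeline and normalized with DESeq2 size factors; versions and whether counting used strand are not given in the sources used here. The authors deposited 1 table per knockdown with its 3 libraries and the 3 white RNAi libraries, in a signal unit of read counts divided by size factors ("normalized reads"). The study's methods name ERCC spike-ins for the size factors, and the tables list 0 ERCC rows. Dividing by the value of 1 read gave whole reads for 100.0% of values (tolerance 1e-06), which the count tests used. Columns of the authors' own fold changes and p-values were not used, and 0 other library columns were left out.

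Each table was fitted alone with limma 3.58.1 (trend) in R 4.3.3 on log2(value + 1), over all genes, transposon families, repeat rows and piRNA clusters whose mean reached 10, with Benjamini-Hochberg adjustment over all features tested; fold changes are on this scale, which understates those of low genes. Calls have an adjusted p under 0.05, and for the second rule also a 2-fold change. Percentages of genes called are over the genes tested. The 12-library fit used recovered reads scaled by the median of ratios over genes. Shares were compared by the exact permutation test (scipy 1.17.1). Alternatives were edgeR 4.0.16, DESeq2 1.42.0, other pseudocounts, minimum means and scales, a replicate block and leaving out each library. The script was tested on simulated data. The limma p-values weigh a difference of group means against the spread between these libraries, moderated over all features tested. Those of the shares come from reassigning these libraries between the groups.

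The members and lists were chosen with earlier results of these data known. The rule for named members took paralogue pairs, RpL32, members called with the 2-fold minimum, the 3 highest and 3 lowest changes of each comparison, the 3 members with most reads, the stalk genes and RpS3A, 31 in all without those not reported here; values per library are given for those on which the results turn, and other members were named after their values were seen. Gene names and overlaps came from RefSeq annotation of Release 6, with all 92 members matched. Its gene coordinates served only to find overlaps, while the reads were aligned to another build, dm3.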

Additional observations from a re-analysis of the deposited data

Results flagged for a closer look

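The comparison of NSL1 with NSL3 RNAi, on a common scale of all 12 libraries, stood out because the 2 knockdowns differed from each other by the test of the difference itself. It was added after the shares had been seen. The number of members that were higher in NSL1 RNAi was 75 of 89, and their share of gene reads was 2.88 percentage points higher in NSL1 than in NSL3 RNAi (exact permutation p = 0.1, the smallest possible with 3 against 3 libraries). Of the 31 members named by rule, RpL10Aa and RpS28a were under the minimum mean and not tested. Among the rest, 23 were higher in NSL1 RNAi at an adjusted p under 0.05 by limma, where 15.4% of all genes were higher. The differences, NSL1 minus NSL3 on the log2 scale, were as follows. RpL10Ab had 0.44, RpL22 had 0.32, RpL24 had 0.35, RpL32 had 0.42 and RpL34a had 0.43. RpL37a had 0.35, RpL41 had 0.41, RpL5 had 0.49, RpL7 had 0.47 and RpL7-like had 0.50. RpLP0 had 0.38, RpLP0-like had 0.62, RpLP1 had 0.70, RpLP2 had 0.36 and RpS10a had 2.24. RpS10b had 0.27, RpS14a had 0.35, RpS15Aa had 0.43, RpS19a had 0.27 and RpS19b had 2.48. RpS2 had 0.45, RpS28b had 0.33, RpS3A had 0.32. Groups of 3 libraries were not tested for single outlying libraries.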

How the results depend on the processing

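Of the values for named members under the alternatives, 1244 kept their direction and side of the threshold, 24 passed it only under the alternative, 42 no longer passed it and 41 changed sign, the last all without a call either way. The cause of these changes was not tested. In NSL1 RNAi the main count was 58 higher and 4 lower, and 43 to 58 higher and 3 to 5 lower with a library left out. A fold minimum of 1.5 gave 1 lower against 0 in NSL1 and 3 against 1 in NSL3 RNAi. The 17 higher and 1 lower of NSL2 RNAi became 26 higher with DESeq2, and 7 to 21 higher and 0 to 2 lower with a library left out. The 24 lower of NSL3 RNAi became 14 with size factors from a median of ratios over genes, 38 with the total of gene reads and 15 to 27 with a library left out, while its 7 higher became 6 to 11 and its 4 over 2-fold 2 to 5. Without both white replicate 3 and NSL3 replicate 2, added after seeing the data, 23 were lower and 10 higher. The comparison of NSL1 with NSL3 RNAi gave 75 higher, and 50 to 73 with a library left out. The pool share differences ranged from 1.526 to 1.876, 0.5352 to 1.11 and -1.351 to -1.001 percentage points in NSL1, NSL2 and NSL3 RNAi.

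Replicate numbers did not pair the libraries (correlations of same-numbered deviations -0.01, -0.14 and -0.10 in NSL1, 0.08, -0.02 and -0.44 in NSL2 and -0.16, 0.02 and 0.22 in NSL3 RNAi). With the replicate block, 56 members were higher and 3 lower in NSL1, 9 and 0 in NSL2 and 7 and 17 in NSL3 RNAi.

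The values that changed sign are these. With size factors from a median of ratios over genes, RpL34a (NSL1) had 0.13, RpL34b (NSL1) had 0.10, RpL41 (NSL1) had 0.013, RpL5 (NSL1) had 0.14, RpS19a (NSL2) had 0.0062, RpL24 (NSL3) had 0.047, RpL34b (NSL3) had 0.015, RpL37a (NSL3) had 0.038, RpS15Aa (NSL3) had 0.044 and RpS19a (NSL3) had 0.042. With the total of gene reads as the scale, RpL34a (NSL1) had 0.029, RpL5 (NSL1) had 0.036, RpL37a (NSL2) had -0.012, RpL7 (NSL2) had -0.00057, RpS3A (NSL2) had -0.00018, RpLP2 (NSL3) had -0.032, RpS14b (NSL3) had -0.0013 and RpS28b (NSL3) had -0.064. Without white replicate 3 and NSL3 replicate 2, RpS15Aa (NSL3) had 0.0034. With TMM factors, RpS28b (NSL3) had -0.029. With a library left out, log2 fold changes and, for pairs, differences in percentage points that crossed 0 ranged as follows: RpL34a (NSL1) -0.070 to 0.10, RpL34b (NSL1) -0.079 to 0.025, RpL5 (NSL1) -0.035 to 0.012, RpS14b (NSL1) -0.069 to 0.10, the share of RpS14b (NSL1) -1.41 to 0.15, the share of RpS15Ab (NSL1) -0.11 to 0.14, RpL34a (NSL2) -0.0066 to 0.15, RpL37a (NSL2) -0.054 to 0.047. The others were RpL7 (NSL2) -0.029 to 0.045, RpLP0-like (NSL2) -0.0050 to 0.17, RpS19a (NSL2) -0.089 to 0.065, RpS3A (NSL2) -0.026 to 0.046, the share of RpS10b (NSL2) -0.013 to 0.00092, RpS14b (NSL3) -0.011 to 0.19 and RpS28b (NSL3) -0.039 to 0.070. The range of RpS28b (NSL3) reached 0.095 without white replicate 3 and NSL3 replicate 2.

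The levels of the rare paralogues in white RNAi rest on few reads.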
